A study of Arabidopsis thaliana with 12 samples.

Results

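The 6 genes described here lie at 2 ends of the gibberellin response of a germinating seed, and they were measured in mature Arabidopsis thaliana seed. GID1A (AT3G05120) and GID1C (AT5G27320) encode gibberellin receptors. SLY1 (AT4G24210) encodes an F-box protein. EXPA9 (AT5G02260) encodes an alpha-expansin. CP1 (AT4G36880) and AT4G01610 encode cysteine proteases of the papain family, AT4G01610 being of the cathepsin B type. They were chosen by name, and a probe set was taken where its single gene in the platform annotation was one of them. Each gene had 1 such probe set, which gave 6 of 22810 probe sets on the Affymetrix ATH1 array. SLY1 was matched by its full symbol, because ATSLY1 is another gene at another locus.

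The question behind the series was how growing conditions and genotype of mother plants bear on the dormancy of their seed, and 12 arrays of 1 sample each were run. All plants were in the Landsberg erecta (Ler) background, which the controls share, and seed was taken mature from opened siliques. The reference was wild-type Ler at 20 °C in 16 h days (3 arrays). Of the other wild-type groups, 1 was grown like the reference until flowering and kept at 10 °C from then until maturity (3 arrays), and 1 was grown at 20 °C in 8 h days (3 arrays, called short days). The ft-1 plants carried a mutation in a promoter of flowering and was grown at 20 °C in 16 h days (3 arrays). For ft-1 the genotype label and title agree, but the source name reads Glabra, and the mutated gene was not analysed here, so the label was not checked against the data. The labels do not state whether arrays 1 to 3 of a group hold seed of different plants, and p-values reflect how far these samples scatter, and that scatter may be technical. In whole seed, fewer cells of a type and less transcript per cell cannot be told apart.

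As background, gibberellin binds a GID1 receptor, and the complex takes hold of DELLA proteins, which hold back germination. SLY1 is the part of a ubiquitin ligase that recognises such DELLA proteins, which are then degraded. Downstream, expansins loosen cell walls so that the embryo can enlarge, and cysteine proteases break down proteins, stored ones among them, during seedling growth. A dry seed holds transcripts left from its maturation; the labels give mature seed and no imbibition step.

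Values are MAS5 signals, a brightness per probe set that was scaled on each array to a trimmed mean of 100. Differences are on the log2 scale and were tested with limma over all 13648 probe sets that were bright enough. All 6 genes passed that filter. Summed signals ran from 3564488 to 4398243 over the 12 arrays. The correlation across probe sets was 0.890 to 0.927 between arrays within a group and 0.861 to 0.918 between arrays from different groups. ft-1 array 2 had the lowest array weight, 0.186, against 0.398 to 3.00 for the others. Its poly-A controls, bacterial RNAs added before labelling, stood at 7.17 on the log2 scale, against 5.06 and 5.47 on the other ft-1 arrays. Reference arrays 1 and 2 stood apart in RCA, the gene of Rubisco activase and a green tissue marker, with signals of 368 and 370.0. Reference array 3 gave 40.8, and the arrays of the other groups 29.7 to 58.8. Other green tissue markers were also lower on reference array 3 than on reference arrays 1 and 2. PSBW gave 51.8 against 140 and 147, PSBY 13.8 against 33.7 and 54.3, and PSAE-1 7.85 against 23.5 and 35.5. LHCB4.2 and LHCB4.1, also green tissue markers, were not lower there. The members and the called list genes against the reference are therefore also given without reference arrays 1 and 2, a setting chosen after seeing the data, in which the lone reference array is assumed to vary like the other groups. Seed markers were bright in every group: of 10 fixed, 3 had a named probe set, and the group means of PAP85, M17 and OLEO3 lay between 10.16 and 13.66 (log2). They were not level across groups: M17 rose at 10 °C (1.38, limma adjusted p = 1.4e-05) and in short days (0.55, adjusted p = 0.041). PAP85 rose at 10 °C (0.68, limma adjusted p = 0.0041). Without reference arrays 1 and 2 M17 gave 1.59 at 10 °C and 0.76 in short days, and PAP85 gave 0.37 at 10 °C. These are sizes against a lone reference array, and no call is drawn from them. The 3′ minus 5′ difference of GAPDH, a measure of RNA quality, also differed: on one pair of control probe sets it was 0.26 to 0.77 (log2) in the reference, 1.32 to 1.79 at 10 °C, 0.56 to 1.65 in short days and 0.80 to 1.03 in ft-1 seed. On the other pair it was 0.28 to 0.44 in the reference and -0.07 to 0.16 at 10 °C, so the pairs moved in opposite directions there. The part of RNA quality and of the seed markers in the differences below was not tested. Of 5 seed coat markers, BAN and DFR could be named on the array, and neither passed the brightness filter.

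Of the 6 genes, AT4G01610 and CP1 passed the test in at least 1 of 6 comparisons, and GID1A, GID1C, SLY1 and EXPA9 passed in none. At 10 °C against the reference 0 of the 6 passed, where 31.9% of all probe sets did. In short days 1 passed (AT4G01610, lower), against 1.78% of all probe sets, and without reference arrays 1 and 2 AT4G01610 did not pass there (limma adjusted p = 0.19). In ft-1 seed 0 passed, against 0.388%. Between 10 °C and short days 1 passed (AT4G01610), against 17.5%. Between 10 °C and ft-1 seed 2 passed (AT4G01610 and CP1), against 24%. Between ft-1 and short-day seed 0 passed, against 0.176%. At an unadjusted limma p under 0.05 the count was 0 of 6 at 10 °C, 2 in short days and 1 in ft-1 seed, against 43%, 17.4% and 12.3% of all probe sets. It was 1 between 10 °C and short days, 2 between 10 °C and ft-1 and 3 between ft-1 and short days (GID1A, CP1 and AT4G01610), against 33.2%, 38.2% and 6.61%. The moderated F test for any difference among the 4 groups was passed by 1 of the 6 and by 26.7% of all probe sets.

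The median difference of the 6 genes from the reference was -0.25 at 10 °C, beside -0.16 over all probe sets tested. It was -0.24 beside -0.06 in short days and -0.03 beside -0.06 in ft-1 seed. Arrays of the compared groups did not overlap for 1, 2 and 1 of the 6 genes at 10 °C, in short days and in ft-1 seed, against 48%, 30.3% and 18% of all probe sets. Between 10 °C and short days, 10 °C and ft-1, and ft-1 and short days it was 2, 1 and 1 of 6, against 39.9%, 33.4% and 11.1%. The comparisons with the reference share its 3 arrays, so their values are not independent of each other.

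**Figure D1:**
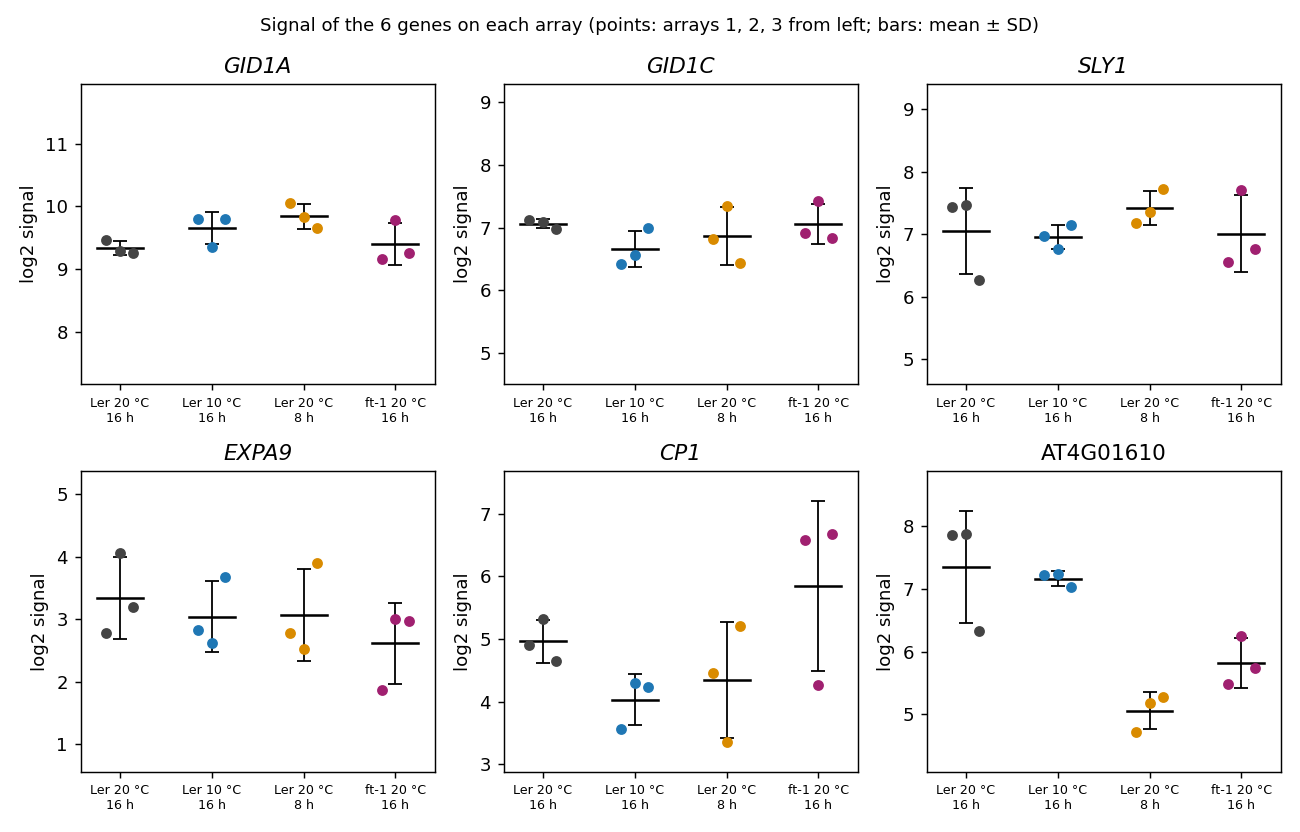
Log2 signal of each gene (vertical axis, panels of equal span) by group (horizontal axis), with points for arrays 1, 2 and 3 from left to right and bars for the mean ± SD of 3 arrays. AT4G01610 is low on all short-day and ft-1 arrays, and CP1 is high on ft-1 arrays 1 and 3 and low on ft-1 array 2.

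Neither gibberellin receptor gene passed in any comparison. GID1A gave 708, 626 and 614 in the reference and 894, 657 and 888 at 10 °C. Short-day seed gave 1063, 910 and 806, and ft-1 seed 573, 883 and 613. The short-day arrays lay above all reference arrays, and the groups from 10 °C and ft-1 overlapped with the reference. The difference in short days was 0.51 (SE 0.20, interval 0.09 to 0.93, 1.42-fold) and did not pass over all probe sets (limma adjusted p = 0.20, unadjusted p = 0.0212). At 10 °C it was 0.31 (SE 0.20, adjusted p = 0.24) and in ft-1 seed 0.06 (SE 0.20, interval -0.36 to 0.48). Without reference arrays 1 and 2 the differences of GID1A were 0.39, 0.58 and 0.14 at 10 °C, in short days and in ft-1 seed, and none passed. With array weights the short-day difference was 0.53 (limma adjusted p = 0.014). In that setting 2447 of all probe sets passed in short days, against 243 in the main fit.

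GID1C gave 139, 137 and 126 in the reference, a narrow range, and 86.1, 95.03 and 127 at 10 °C. Short-day seed gave 113, 163 and 86.5 and ft-1 seed 121, 172 and 114, so that every group overlapped with the reference. The differences from the reference were -0.40 at 10 °C (SE 0.25, interval -0.95 to 0.14, limma adjusted p = 0.24), -0.20 in short days (SE 0.25) and -0.01 in ft-1 seed (SE 0.25, interval -0.55 to 0.54). Scaling on hybridisation controls moved the median of all probe sets at 10 °C to -0.85, and under it GID1C gave -1.09 (adjusted p = 0.0084). Without reference arrays 1 and 2 it gave -0.32, -0.11 and 0.08 in the same order of groups, and none passed. The reference and ft-1 were the highest groups for GID1C and the lowest for GID1A. GID1B, the remaining receptor gene of the family, had signals of 0.374 to 10.5 over the 12 arrays, and its mean was too low to be tested.

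Because GID1A and GID1C were read on the same arrays, the change of one relative to the other does not depend on how an array was scaled by a constant factor. The log2 signal of GID1A minus that of GID1C was 2.27 ± 0.0769 in the reference and 2.34 ± 0.0933 in ft-1 seed (SD, n = 3 each). It was 2.99 ± 0.335 at 10 °C and 2.98 ± 0.428 in short days. All arrays from 10 °C and from short days lay above all reference and ft-1 arrays. The size of this difference in a group has no meaning, since the probe sets have different affinities. Its change over the groups gave p = 0.0295 in an exact permutation test of the 4 groups, and 0.0419 adjusted over the 2 pairs of genes examined. Under quantile normalization the exact p was 0.108, and without 1 array it ran from 0.00604 to 0.0577. It exceeded 0.05 without reference array 2 (0.0539), without array 1 from 10 °C (0.0552) and without short-day arrays 1 and 3 (0.0576 and 0.0577).

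SLY1 did not pass in any comparison. Its signals were 172, 177 and 76.97 in the reference and 125, 109 and 142 at 10 °C. Short-day seed gave 145, 164 and 211, and ft-1 seed 93.6, 209 and 109. Reference array 3, which was low for AT4G01610, was also the lowest of all arrays for SLY1, and ft-1 array 2 was near the top. The differences from the reference were -0.10 at 10 °C, 0.37 in short days and -0.05 in ft-1 seed (SE 0.34 each). The interval for short days reached from -0.36 to 1.09, which holds both no change and a 2-fold rise. Without reference arrays 1 and 2 the differences of SLY1 were 0.69, 1.15 and 0.74 (SE 0.41 each, limma adjusted p = 0.28, 0.31 and 0.73). Arrays from 10 °C lay below all short-day arrays, with a difference of -0.46 (SE 0.34, limma adjusted p = 0.36), which was -0.96 with the poly-A covariate (adjusted p = 0.033).

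EXPA9 was close to the brightness cutoff of the tests. Its mean over all arrays was 3.02 on the log2 scale, against 2.88 for the dimmest probe set tested. The signals were 6.83, 16.6 and 9.20 in the reference, 7.06, 6.15 and 12.8 at 10 °C, 6.83, 5.76 and 14.9 in short days, and 3.66, 7.98 and 7.86 in ft-1 seed. All groups overlapped. The differences from the reference were -0.30, -0.28 and -0.73 (SE 0.63 each). They were -0.16, -0.13 and -0.59 without reference arrays 1 and 2. The interval for ft-1 seed ran from -2.07 to 0.61.

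AT4G01610, the cathepsin B-type protease gene, was lower in short-day seed than in the reference and in seed from 10 °C. Its signal in reference seed was 233, 234 and 80.2 on arrays 1, 2 and 3. Seed from 10 °C gave 149, 151 and 130.4, inside the range of the reference. Short-day seed gave 26.3, 36.1 and 38.6, and ft-1 seed 44.5, 76.3 and 53.4. All short-day arrays and all ft-1 arrays lay below all reference arrays, and reference array 3 was far below the other reference arrays.

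In short-day seed AT4G01610 fell from a mean of 7.35 ± 0.890 to 5.05 ± 0.294 (log2, SD, n = 3 each). The change was -2.30 (SE 0.36, 95% interval -3.06 to -1.54, limma adjusted p = 0.0045), or 4.92-fold lower. It was the only one of the 6 genes to pass in that comparison. By p-value it ranked 32 of the 13648. The fall passed without each of the 12 arrays in turn (-2.81 to -2.04, adjusted p = 0.00036 to 0.036) and in 10 of the 11 other settings tried. It did not pass without reference arrays 1 and 2, which had high RCA as well as high AT4G01610 (-1.27, SE 0.36, limma adjusted p = 0.19). Poly-A controls were higher in short-day seed (6.88 to 6.90) than in the reference (5.73 to 6.14), and with their level as a covariate the change was -2.71 (adjusted p = 0.0017).

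In ft-1 seed the difference of AT4G01610 from the reference was -1.53 (SE 0.36, interval -2.29 to -0.77), with a mean of 5.82 ± 0.396 (SD, n = 3). It did not pass (limma adjusted p = 0.076). This call rests on the reference arrays kept: without reference arrays 1 and 2 the difference was -0.50 (limma adjusted p = 0.79). Without reference array 3 the difference was -2.04 (limma adjusted p = 0.0029), and without ft-1 array 2 it was -1.75 (adjusted p = 0.042). With array weights the difference was -2.12 (limma adjusted p = 5.8e-05) and with the poly-A covariate -1.49 (adjusted p = 0.015). Of all probe sets, 1767 and 521 passed in ft-1 seed under these settings, against 53 in the main fit.

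At 10 °C the difference of AT4G01610 from the reference was -0.19 (SE 0.36, interval -0.95 to 0.57, limma adjusted p = 0.71), it was -0.71 without reference array 3 and 0.84 without reference arrays 1 and 2 (adjusted p = 0.15). Set directly against the other groups, seed from 10 °C was higher than short-day seed by 2.11 (SE 0.36, limma adjusted p = 0.0017, 4.31-fold) and higher than ft-1 seed by 1.34 (SE 0.36, adjusted p = 0.015, 2.53-fold). In both comparisons all 3 arrays from 10 °C lay above all 3 of the other group. The difference from short-day seed passed under all 11 other settings (1.69 to 2.26) and without any 1 array. Arrays outside the compared groups, such as reference arrays 1 and 2, enter only the estimate of spread. Leaving them out could not change the size of 2.11. The difference from ft-1 seed did not pass with scaling on hybridisation controls (0.72, adjusted p = 0.13) or with the poly-A covariate (0.52, adjusted p = 0.62). Nor did it pass without ft-1 array 1 (1.17), ft-1 array 3 (1.30) or array 1 from 10 °C (1.31).

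The order of AT4G01610 was reference, 10 °C, ft-1 and short days from high to low. Of neighbours in this order, the reference and 10 °C did not differ past the test. Nor did ft-1 and short-day seed (0.77, SE 0.36, limma adjusted p = 0.75), although their arrays did not overlap. AT4G01610 was also the only member past the moderated F test for any difference among the 4 groups (adjusted p = 0.0011).

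CP1, the other protease gene, passed in 1 comparison, between 10 °C and ft-1 seed. Its signal was 30.0, 40.1 and 24.997 in the reference and 11.8, 19.6 and 18.8 at 10 °C, so that these groups did not overlap. Short-day seed gave 22.0, 10.3 and 36.7. In ft-1 seed arrays 1 and 3 gave 95.3 and 102, the highest of all 12 arrays, while array 2 gave 19.3, below every reference array. The spread of CP1 over the ft-1 arrays was accordingly wide, 1.36 (SD on the log2 scale, n = 3), against 0.343 in the reference.

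CP1 gave no call against the reference in any group. The differences were -0.93 at 10 °C (SE 0.57, interval -2.15 to 0.29, limma adjusted p = 0.23), -0.62 in short days (adjusted p = 0.61) and 0.88 in ft-1 seed (interval -0.34 to 2.10, adjusted p = 0.57). They were -0.61, -0.30 and 1.20 without reference arrays 1 and 2, and none passed. Seed from 10 °C had less CP1 transcript than ft-1 seed by -1.81 (SE 0.57, limma adjusted p = 0.034, 3.50-fold), with arrays that overlapped because of ft-1 array 2. Without ft-1 array 2 that difference was -2.59 (adjusted p = 0.00036). Without ft-1 array 1 it was -1.44 and without ft-1 array 3 -1.39 (adjusted p = 0.15 each), without array 1 from 10 °C -1.57 (adjusted p = 0.12) and without array 3 from 10 °C -1.91 (adjusted p = 0.071).

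Among the ft-1 arrays, array 2 had the lowest CP1 signal and the highest poly-A controls. Once the poly-A level was a covariate, the difference between 10 °C and ft-1 seed became 0.17 (limma adjusted p = 0.92). Poly-A controls at 10 °C stood at 7.40 to 7.98, above all other arrays. Within groups their level varied mainly in ft-1 seed (SD 1.12, against 0.0154 to 0.291 in the other groups). The covariate thus leans on ft-1 array 2 and cannot separate poly-A level from group. The difference between ft-1 and short-day seed was 1.5 (SE 0.57, limma adjusted p = 0.61) and 2.29 without ft-1 array 2 (adjusted p = 0.012). From high to low the order of CP1 was ft-1, reference, short days and 10 °C, and no neighbours in it differed past the test.

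The same was computed for the proteases. CP1 minus AT4G01610 was -2.39 ± 0.651 in the reference, -3.13 ± 0.460 at 10 °C, -0.71 ± 0.957 in short days and 0.02 ± 1.73 in ft-1 seed (log2, SD, n = 3 each). ft-1 array 2, at -1.98, lay apart from the other ft-1 arrays and within the range of the reference. The exact permutation test over the 4 groups gave p = 0.0419, the same after adjustment over the 2 pairs. It rests on few arrays, since leaving out 1 array gave exact p = 0.00149 to 0.0768, over 0.05 for 8 of the 12 arrays. Reference array 3, at -1.68, lay within the short-day range of -1.81 to -0.07. The permutation test was not run without reference arrays 1 and 2 together.

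**Figure D2:**
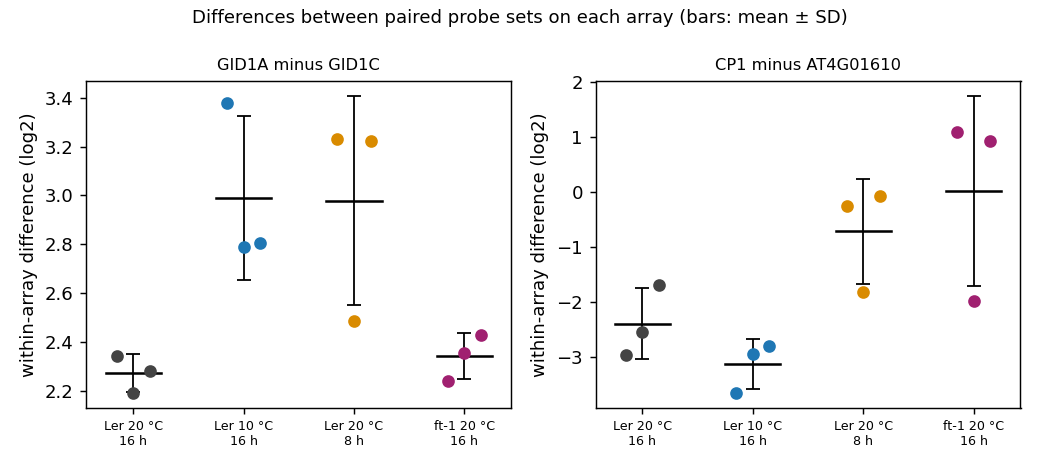
Within-array difference in log2 signal (vertical axis) for GID1A minus GID1C (left) and CP1 minus AT4G01610 (right) by group, with points for single arrays and bars for the mean ± SD of 3 arrays. The receptor difference is near 2.3 in the reference and ft-1 and near 3.0 at 10 °C and in short days, and ft-1 array 2 lies apart on the right.

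**Figure D3:**
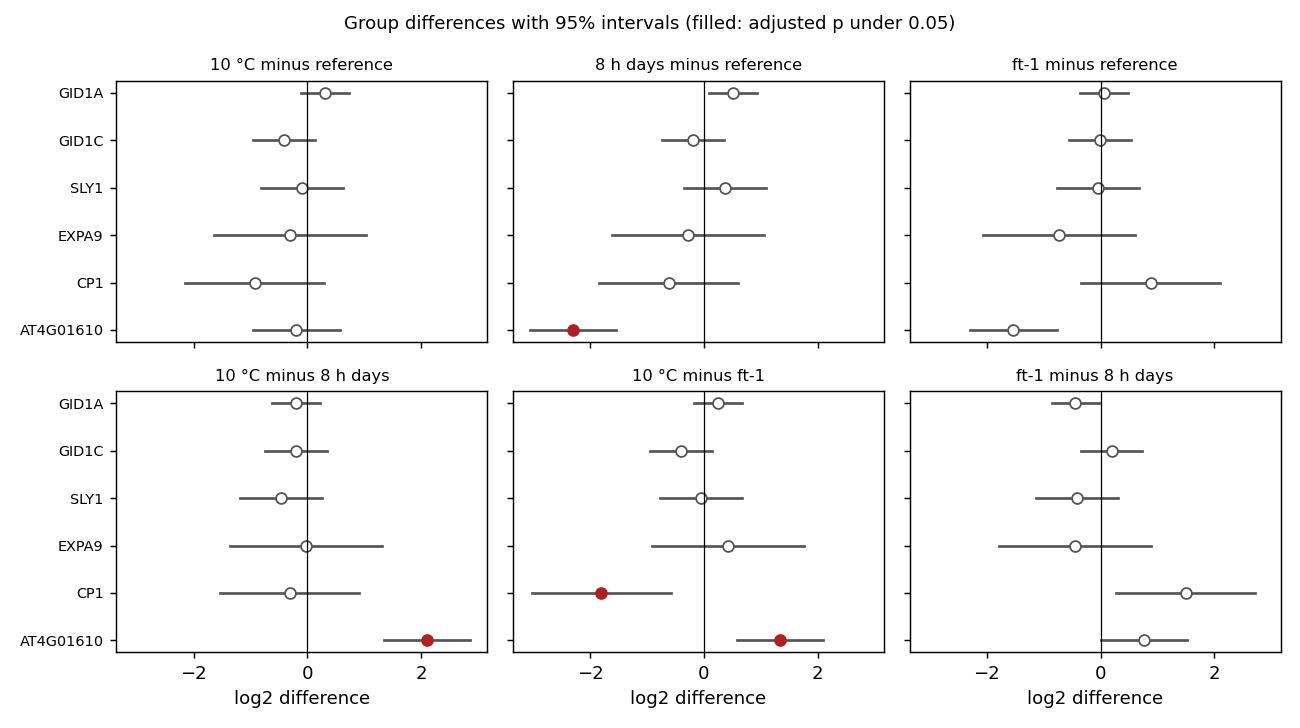
Log2 differences (horizontal axis) of the 6 genes in each of the 6 comparisons, with 95% intervals from limma and filled points where the adjusted p was under 0.05. Filled points are AT4G01610 in 3 panels and CP1 in 1, and the widest intervals are those of EXPA9.

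Other genes of the same pathways were taken from fixed lists. Of 18 gibberellin signalling genes, 6 had a named probe set and 5 were tested, the receptors and SLY1 among them. SPY, which encodes an enzyme that modifies DELLA proteins and holds gibberellin responses back, was the 1 of 5 that passed at 10 °C, against 31.9% of all probe sets. It fell at 10 °C from 8.28 to 6.67 (-1.61, SE 0.34, limma adjusted p = 0.0040), and without reference arrays 1 and 2 the difference did not pass (-1.59, adjusted p = 0.078). It was lower at 10 °C than in short days (-1.34, adjusted p = 0.018) and than in ft-1 seed (-1.36, adjusted p = 0.012) as well. SLY2, an F-box gene related to SLY1, gave 0.33, 0.57 and 0.07 (SE 0.50 each) at 10 °C, in short days and in ft-1 seed and did not pass. Of 17 gibberellin metabolism genes 0 had a named probe set, so that none was analysed here.

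Of 76 wall loosening genes, 29 had a named probe set and 8, EXPA9 included, were bright enough to test. At 10 °C 2 of the 8 rose, a share no higher than the 31.9% of all probe sets that passed, and 6 did not pass. The list median was 0.60 beside -0.16 for all probe sets. EXLA1, an expansin-like gene, rose from 9.44 to 11.18 (1.74, SE 0.19, limma adjusted p = 5.6e-05), and the beta-expansin gene EXPB5 from 3.47 to 4.98 (1.51, SE 0.51, adjusted p = 0.035). Without reference arrays 1 and 2 EXLA1 passed (1.49, limma adjusted p = 0.012) and EXPB5 did not (1.41, adjusted p = 0.24). EXLA1 also stood above short-day seed (1.00, adjusted p = 0.0035) and ft-1 seed (1.03, adjusted p = 0.0020). No wall loosening gene passed in short days or ft-1 seed by limma, where 1.78% and 0.388% of all probe sets did. In these groups EXLA1 gave 0.75 (limma adjusted p = 0.062) and 0.71 (adjusted p = 0.12).

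Of 15 papain-family cysteine protease genes, 5 had a named probe set and 3 were tested: CP1, AT4G01610 and AT1G02305, another cathepsin B-type gene. AT1G02305 gave -0.20, -0.08 and 0.05 (SE 0.15 each) at 10 °C, in short days and in ft-1 seed and did not pass. Its short-day interval thus stood apart from that of AT4G01610, though the difference between the genes was not tested. Of 4 vacuolar processing enzyme genes, whose products cut seed storage proteins, 2 were tested. GAMMA-VPE rose at 10 °C (0.65, SE 0.16, limma adjusted p = 0.0070; 0.42 and adjusted p = 0.22 without reference arrays 1 and 2) and gave 0.64 in short days (adjusted p = 0.053) and 0.73 in ft-1 seed (adjusted p = 0.054). BETA-VPE, the form known from seeds, gave 0.24, 0.06 and -0.04 and did not pass.

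**Figure D4:**
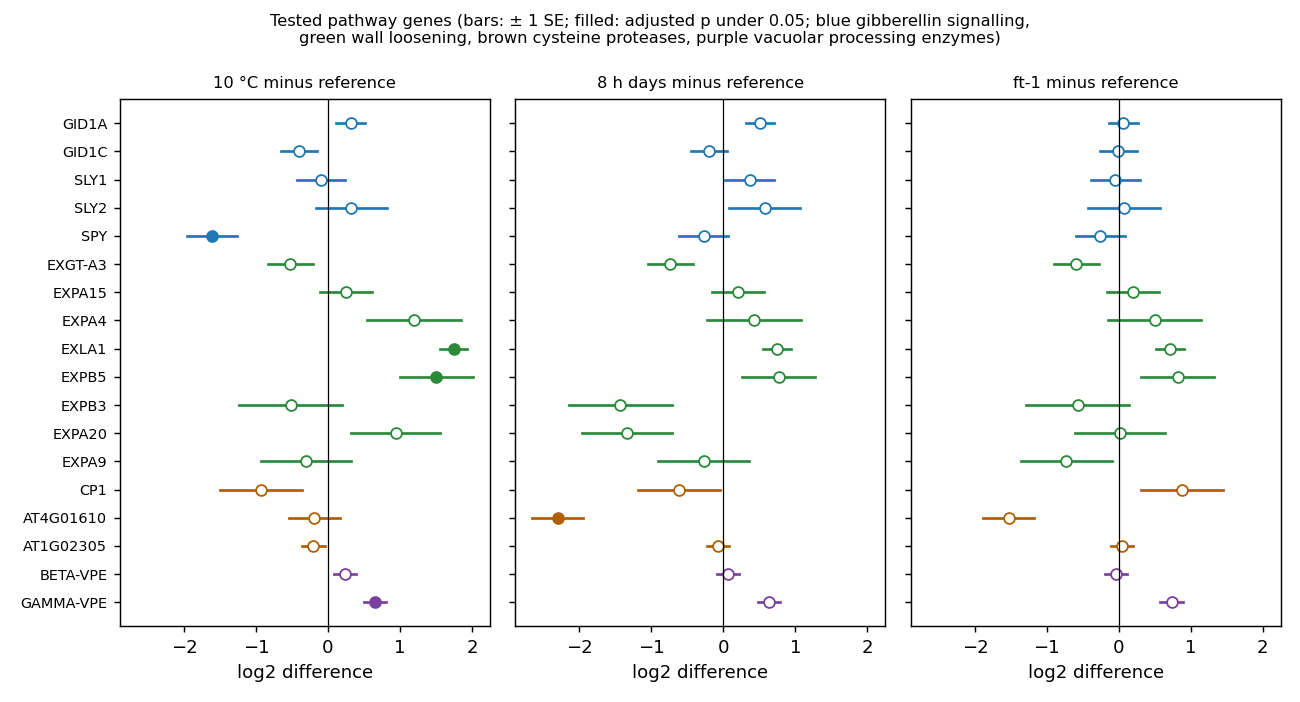
Log2 differences from the reference (horizontal axis, bars ± 1 SE) of the 18 tested genes of the 4 lists, with filled points where the limma adjusted p was under 0.05. At 10 °C SPY is low and EXLA1, EXPB5 and GAMMA-VPE are high, and in short days AT4G01610 is the only filled point.

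The genes whose profile was most like that of AT4G01610 were found by the root mean square difference of centred log2 signals over the 12 arrays, among 7584 tested probe sets with 1 gene. They were AT1G29980 (0.377), AT5G01210 (0.428) and AT5G01800 (0.539), against a median of 1.16 over all compared. AT1G29980 had group means of 5.48 in the reference, 5.99 at 10 °C, 4.08 in short days and 4.45 in ft-1 seed. Its lower means in the last 2 groups follow from its choice by profile. AT5G01210 was at 5.75, 5.17, 3.47 and 4.47, and AT5G01800 at 5.30, 6.09, 4.23 and 4.73. For CP1 the closest were AT1G22890 (0.510), AT5G51630 (0.533) and psaA (0.549), a plastid gene of photosystem I, against a median of 1.05. AT1G22890 was at 4.49, 3.25, 3.88 and 5.74 in the same order of groups. These are descriptions of 12 shared arrays, with no test.

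Markers of green tissue and seed coat were read on the same arrays. The summed signal of the 6 green tissue markers that could be named, of 8 listed, ran from 9.68 to 10.35 (log2) in the reference and from 9.71 to 9.94 in short days. It was 10.07 to 10.26 at 10 °C and 9.32 to 9.80 in ft-1 seed. Signals were summed before log2, so dim markers such as PSBY and PSAE-1 hardly enter the sum. In the reference LHCB4.1 (539 to 608) weighs most. RCA had a mean of 7.47 in the reference, 5.49 at 10 °C, 5.47 in short days and 5.30 in ft-1 seed. Reference array 3, the lowest reference array for RCA, PSBW, PSBY and PSAE-1, was also the lowest reference array for AT4G01610 and SLY1. On the arrays from 10 °C AT4G01610 gave at least 130.4 and RCA 37.7 to 58.8. PSBW (261 to 434) and LHCB4.2 (284 to 323) lay above all reference arrays there, and LHCB4.1 lay below them. RCA, PSBY and PSAE-1 overlapped with the reference. PSAE-1, a photosystem I gene of the list, had means of 4.23 in the reference, 4.71 at 10 °C, 3.32 in short days and 2.66 in ft-1 seed, the same 2 groups being lower as for AT4G01610. PSAE-1 did not pass against the reference in short days (-0.91, SE 0.53, limma adjusted p = 0.40) and passed between 10 °C and ft-1 seed (2.05, adjusted p = 0.014). PSBY had means of 4.88, 4.45, 3.88 and 3.32 in the same order of groups, and PSBW 6.67, 8.41, 6.57 and 6.35. Both were thus also lowest in those 2 groups, PSBW by little against the reference, and LHCB4.2 and LHCB4.1 were not. Without reference arrays 1 and 2 the short-day differences were 0.34 for PSAE-1, 0.08 for PSBY and 0.88 for PSBW. Their lower short-day means against the reference thus rested on these arrays. In ft-1 seed the differences in that setting were -0.31, -0.47 and 0.65. The 6 markers did not share one direction. With all arrays, LHCB4.2 gave 0.45, LHCB4.1 0.02, PSBW -0.10 and PSBY -1.001 in short days. Of the 6 markers 0 passed there by limma, against 1.78% of all probe sets. At 10 °C LHCB4.2 (1.67, limma adjusted p = 4.9e-05) and PSBW (1.74, adjusted p = 0.0036) rose. RCA (-1.98, limma adjusted p = 0.024) and LHCB4.1 (-0.61, adjusted p = 0.031) fell there, and PSBY gave -0.42. Without reference arrays 1 and 2 the sizes at 10 °C were 1.62 for LHCB4.2, 2.72 for PSBW, -0.67 for LHCB4.1 and 0.66 for PSBY. No call is drawn from them. RCA gave 0.14 in that setting, so its fall rested on these 2 arrays. In ft-1 seed the 6 ran from -2.17 for RCA to 0.04 for LHCB4.2 with all arrays, and 0 passed, against 0.388% of all probe sets. BAN and DFR together, for the seed coat, ran from 3.37 to 4.57 in the reference, 4.54 to 5.12 at 10 °C, 2.65 to 3.66 in short days and 1.08 to 3.63 in ft-1 seed. Their part in the protease values was not tested.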

How the data were processed

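RNA from mature seed was hybridised to 12 Affymetrix ATH1 arrays. The deposited intensities are MAS5 signals from GCOS per the submitters' processing notes, with no version given; the 2% trimmed mean of each column lay at 100. After log2, 64 AFFX controls and the 9098 of 22746 other probe sets with a mean under the 40th percentile were left out of the tests. Of the 22746, 13513 had 1 gene in the platform annotation, 503 several and 8730 none; symbols and loci were updated through TAIR10.1 gene identifiers. No coordinates or sequences are printed, because the sources used here name no build for the annotation and no sequence file was used.

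All 12 arrays entered one limma fit (version 3.58.1, R 4.3.3) of the 4 group means, with an intensity-dependent variance prior. Tests were two-sided and adjusted by Benjamini-Hochberg over the 13648 probe sets in each of 6 comparisons, with a threshold of 0.05. The test was checked on simulated data. The exact permutation test used all 369600 assignments of arrays to groups. The number of arrays limits the precision. No 2 arrays held the same values. Members and lists were chosen with earlier results of these data known. Named were the 6 members, up to 4 listed genes per list and comparison with the reference that passed, and the 3 closest profiles of each member that passed in any comparison. The list genes SLY2, AT1G02305 and BETA-VPE, the marker genes, and the untested GID1B were named after their values were seen.

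Same-numbered arrays of different groups did not deviate together (r = -0.23 to 0.14 over 18 pairs), so the numbers were not taken to pair the samples. Alternatives changed the scaling (quantiles, the array median, or 18 hybridisation control probe sets), added a covariate (the mean of 27 poly-A control probe sets) or the replicate number as a block, dropped the filter or the variance trend, added 16 before log2, weighted the arrays, fitted only the groups compared, or left out each array in turn. The poly-A level varied within groups mainly in ft-1 seed, so its covariate cannot separate that level from group. Leaving out reference arrays 1 and 2 together was added after seeing the data.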

Additional observations from a re-analysis of the deposited data

How the results depend on the processing

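The difference of AT4G01610 between 10 °C and short days passed under all 11 alternatives and without each array. Leaving out arrays of other groups could alter that test only through the estimate of spread. The fall of AT4G01610 in short days passed in all but the alternative without reference arrays 1 and 2. Of 396 differences of single genes under these alternatives, 347 kept direction and call, 6 lost the call, 14 gained it and 29 changed sign. Of 432 with 1 array left out, 397 kept both, 7 lost the call, 3 gained it and 25 changed sign. Of these sign changes, 1 touched a call, that of CP1 between 10 °C and ft-1 seed (0.17 with the poly-A covariate). Unless stated otherwise below, the cause was not tested. Quantile normalization turned the sign of SLY1 (0.19) and AT4G01610 (0.063) at 10 °C against the reference, GID1A (-0.0052) and GID1C (0.017) in ft-1 against the reference, and SLY1 (0.23) between 10 °C and ft-1. Centring on the median turned GID1C (0.15) and SLY1 (0.10) in ft-1 against the reference. Scaling on hybridisation controls turned GID1A at 10 °C (-0.37), in ft-1 (-0.00033) and between 10 °C and ft-1 (-0.37), and EXPA9 between the last 2 (-0.20). The poly-A covariate turned GID1A (-0.24) and CP1 (0.94) at 10 °C, SLY1 (-0.19) and CP1 (0.37) in short days, and GID1C (0.018) and SLY1 (0.010) in ft-1. It also turned CP1 (0.58) between 10 °C and short days, GID1A (-0.34) and EXPA9 (-0.26) between 10 °C and ft-1, and SLY1 (0.20) between ft-1 and short days. Array weights turned GID1A in ft-1 (-0.17), EXPA9 between 10 °C and short days (0.19) and SLY1 between 10 °C and ft-1 (0.36). Leaving out reference arrays 1 and 2 turned SLY1 (0.69) and AT4G01610 (0.84) at 10 °C and GID1C (0.081) and SLY1 (0.74) in ft-1.

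Members past the test were 0, 1, 0, 1, 2 and 0 of 6 at 10 °C, in short days and in ft-1 against the reference, and between 10 °C and short days, 10 °C and ft-1, and ft-1 and short days, and 1 in the F test. Scaling on hybridisation controls gave 2 at 10 °C (GID1C and CP1), 2 between 10 °C and ft-1 (CP1 and GID1C, -1.02, in place of AT4G01610) and 3 in the F test, and centring on the median 2 in the F test. The poly-A covariate gave 1 in ft-1 (AT4G01610), 2 between 10 °C and short days (SLY1 and AT4G01610) and 0 between 10 °C and ft-1. Array weights gave 1 at 10 °C (CP1), 2 in short days (GID1A and AT4G01610), 3 in ft-1 (SLY1, CP1 and AT4G01610), 3 between 10 °C and ft-1 (GID1A, 0.52, CP1 and AT4G01610), 3 between ft-1 and short days (GID1A, SLY1 and CP1) and 4 in the F test. Between 10 °C and ft-1 the fit without a variance trend and the fit of 2 groups only each gave 1. Without reference arrays 1 and 2, 0 passed in short days by limma (AT4G01610 -1.27, adjusted p = 0.19) and 1 between 10 °C and ft-1, where CP1 had an adjusted p = 0.057. The range without 1 array was 0 to 1 in ft-1 against the reference, 0 to 2 between 10 °C and ft-1, 0 to 1 between ft-1 and short days and 1 to 3 in the F test.

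Over all probe sets the counts were 4347, 243, 53, 2384, 3271 and 24 in the same order. Centring on the median gave 86 in ft-1. Scaling on hybridisation controls gave 7183, 399, 4242 and 6456 for 10 °C, short days, 10 °C against short days and 10 °C against ft-1. The poly-A covariate gave 364, 124 and 521 for the comparisons with the reference and 713 for 10 °C against ft-1. No filter gave 15 between ft-1 and short days, and no variance trend 139 in short days and 12 in ft-1. Array weights gave 6549, 2447, 1767, 4955, 6826 and 2295. The fit of 2 groups only gave 1107 in short days, 0 in ft-1, 1534 between 10 °C and ft-1 and 6 between ft-1 and short days. Leaving out reference arrays 1 and 2 gave 922, 39 and 15 for the comparisons with the reference and 10 between ft-1 and short days, with fewer arrays in the fit. The replicate block gave 133 in short days, 22 in ft-1 and 11 between ft-1 and short days, and it changed no call of a member; arrays were closest to one of their own number in 1 of 12 cases. Without 1 array the counts ran from 2596 to 5340, 64 to 1139, 13 to 92, 1063 to 3774, 1659 to 5123 and 0 to 633.

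The range of group means of GID1A minus GID1C was 0.72, 0.53 under quantile normalization and 0.68 to 0.95 without 1 array. That of CP1 minus AT4G01610 was 3.15, and 2.61 to 4.15 without 1 array. Without 1 array, the differences that changed sign ran as follows against the reference. At 10 °C SLY1 ran from -0.49 to 0.11, EXPA9 from -0.62 to 0.054 and AT4G01610 from -0.71 to 0.066. In short days GID1C ran from -0.44 to 0.017, SLY1 from -0.028 to 0.57 and EXPA9 from -0.69 to 0.080. In ft-1 GID1A ran from -0.13 to 0.18, GID1C from -0.19 to 0.11 and SLY1 from -0.44 to 0.18. Between 10 °C and short days GID1C ran from -0.42 to 0.035, EXPA9 from -0.35 to 0.39 and CP1 from -0.80 to 0.12. SLY1 between 10 °C and ft-1 ran from -0.27 to 0.30, and GID1C between ft-1 and short days from -0.023 to 0.43. Brightness limits EXPA9 and CP1.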
